A study of Mus musculus with 12 samples.

Results

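The brakes on signaling by signal transducers and activators of transcription (STATs) were described as 9 genes, Socs1, Socs2, Socs3, Socs5, Cish, Ptpn1, Ptpn2, Ptpn11 and Pias1, picked by gene symbol from the 15002 genes in the tables. Their mRNA was measured in IEC4.1 cells, a wild-type mouse line labelled intestinal epithelial, in 12 RNA-seq libraries that form 4 groups of 3. The siR_Ctrl groups received a scrambled control siRNA and the siR_Nostrill groups a pool of 3 siRNAs (40 nM each) against the long non-coding RNA Nostrill. In each case 1 group was left without IFN-γ and 1 was given IFN-γ, at 1 ng/ml for 4 h by the study's methods, after transfection for 24 h, whereas the labels give 24 h as the time of every library. All groups thus carry an siRNA, all cells come from 1 line, and the knockdown rests on 1 siRNA pool. The level of Nostrill was not analysed here, and the strength of its knockdown was not checked.

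STATs are latent transcription factors that Janus kinases (JAKs) phosphorylate at an engaged cytokine receptor, and IFN-γ acts mainly through JAK1 and JAK2. The suppressors of cytokine signaling (the SOCS proteins and CIS, the product of Cish) bind the receptor or kinase. Several of their genes are themselves STAT targets, which makes these a feedback brake. Tyrosine phosphatases remove the phosphate from JAKs and STATs, and PIAS proteins act on STATs in the nucleus, and these brakes are largely present before a signal arrives.

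Between 17824306 and 19093204 reads fell on genes in each library, and every pair of replicates differed by more than sampling noise (chi-square per degree of freedom 6.46 to 96.5). The study's methods call the replicates biological, and the labels do not say whether each was a separate culture, so the p-values measure the spread between these libraries, which may be technical in part. Irf1, a transcription factor gene that IFN-γ induces directly and that checks the action of IFN-γ, had 46.97 to 55.06 FPKM (fragments per kilobase of transcript, scaled to the reads of the library) in siR_Ctrl cells and 562.39 to 593.52 FPKM with IFN-γ. The cell type label was not borne out by marker genes. Of 8 listed epithelial markers, the 4 analysed here (Krt8, Krt18, Krt19 and Vil1) summed to 1.23 to 3.05 FPKM over the 12 libraries, and 3 of the 4 stayed below 1 FPKM in every library, while 6 fibroblast markers, led by the collagen gene Col1a1, summed to 370 to 654 FPKM, with 1 of the 6, Lum, below 1 FPKM in every library. Of 6 listed leukocyte and 3 listed endothelial markers, the 4 and 2 analysed here summed to at most 2.45 and 0.18 FPKM.

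A further property of the libraries touches the longer members. In each library the deviation of genes from their mean over the 3 libraries of its group followed gene length. Spearman correlations across genes ran from -0.75 (siR_Ctrl + IFN-γ replicate 2) to 0.782 (siR_Ctrl replicate 1). These correlations are over genes, which are not independent replicates. Each test below was therefore also run with the length trend of each library removed, and such values are named as length-adjusted.

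Upstream sequence was read for the 3 members that rose with IFN-γ in both siR_Ctrl and siR_Nostrill cells, because 2 short elements are known to carry the IFN response to a promoter. These are the gamma-activated site (GAS, searched as TTCNNNGAA), which binds STAT dimers, and the core of the interferon-stimulated response element (ISRE, searched as GAAANNGAAA), which binds interferon regulatory factors. Each line gives the 250 bases before the RefSeq start site (GRCm38.p6), 5′ to 3′ on the strand of the gene, with capitals for bases in a match on either strand. The windows are chr16:10785537-10785786 (minus strand) for Socs1, chr11:117969367-117969616 (minus strand) for Socs3, where the start site used lies inside the annotated gene, and chr9:107296409-107296658 (plus strand) for Cish.
Socs1: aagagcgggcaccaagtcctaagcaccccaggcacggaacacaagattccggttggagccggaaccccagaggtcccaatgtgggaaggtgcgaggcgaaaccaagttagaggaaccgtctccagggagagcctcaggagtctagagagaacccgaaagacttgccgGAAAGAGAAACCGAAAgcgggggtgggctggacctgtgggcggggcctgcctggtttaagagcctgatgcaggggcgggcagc
Socs3: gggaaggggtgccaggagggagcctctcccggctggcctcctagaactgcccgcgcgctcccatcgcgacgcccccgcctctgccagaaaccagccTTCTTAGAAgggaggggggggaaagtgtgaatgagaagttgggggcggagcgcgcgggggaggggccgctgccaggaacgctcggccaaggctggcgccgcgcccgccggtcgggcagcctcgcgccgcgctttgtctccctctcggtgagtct
Cish: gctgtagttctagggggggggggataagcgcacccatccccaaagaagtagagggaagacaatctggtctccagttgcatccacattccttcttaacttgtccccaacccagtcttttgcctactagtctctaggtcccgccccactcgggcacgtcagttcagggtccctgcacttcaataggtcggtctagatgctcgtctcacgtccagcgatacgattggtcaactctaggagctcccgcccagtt

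The Socs1 window held 2 overlapping ISRE cores, beginning 83 and 77 bases before the start, and no GAS. In the Socs3 window there was 1 GAS, beginning 154 bases before the start, and no ISRE core. The Cish window held neither string of letters, nor did the windows of Ptpn1, Ptpn11 and Pias1, which complete the 6 members of 9 with an entry (Socs2, Socs5 and Ptpn2 have none). For Ptpn1 (chr2:167932077-167932326, plus strand), as for Socs3, the start site used lies inside the annotated gene. Of 32851 promoter windows of the same 250 bases, 7.02% held a GAS and 2.98% an ISRE core. A match of letters is a description of the sequence and does not show that a factor binds there.

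The question of the IFN-γ comparisons is how the brakes respond to the cytokine, with and without Nostrill knockdown. In siR_Ctrl cells Socs1, Socs3 and Cish rose 7.81-fold, 5.27-fold and 3.99-fold in mean FPKM, and no phosphatase, Socs5 or Pias1 passed the test. The same 3 genes and Socs2 rose in siR_Nostrill cells, Socs1 7.77-fold, Socs3 4.64-fold, Cish 4.88-fold and Socs2 4.77-fold. By edgeR's quasi-likelihood test at a Benjamini-Hochberg adjusted p of 0.05, this is 3 of 9 members in siR_Ctrl cells, where 5.45% of the 11900 genes tested were called, and 4 of 9 in siR_Nostrill cells, where 6.78% were called. Socs2 passed the filter on low counts only through its IFN-γ groups, and without it 3 of 8 members were called in both. No member was called lower. In such bulk samples fewer responding cells and less RNA per cell cannot be told apart. The median log2 fold change of the 9 members was 0.18 in siR_Ctrl and 0.31 in siR_Nostrill cells, beside -0.01 and 0.00 over all genes tested.

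**Figure D1:**
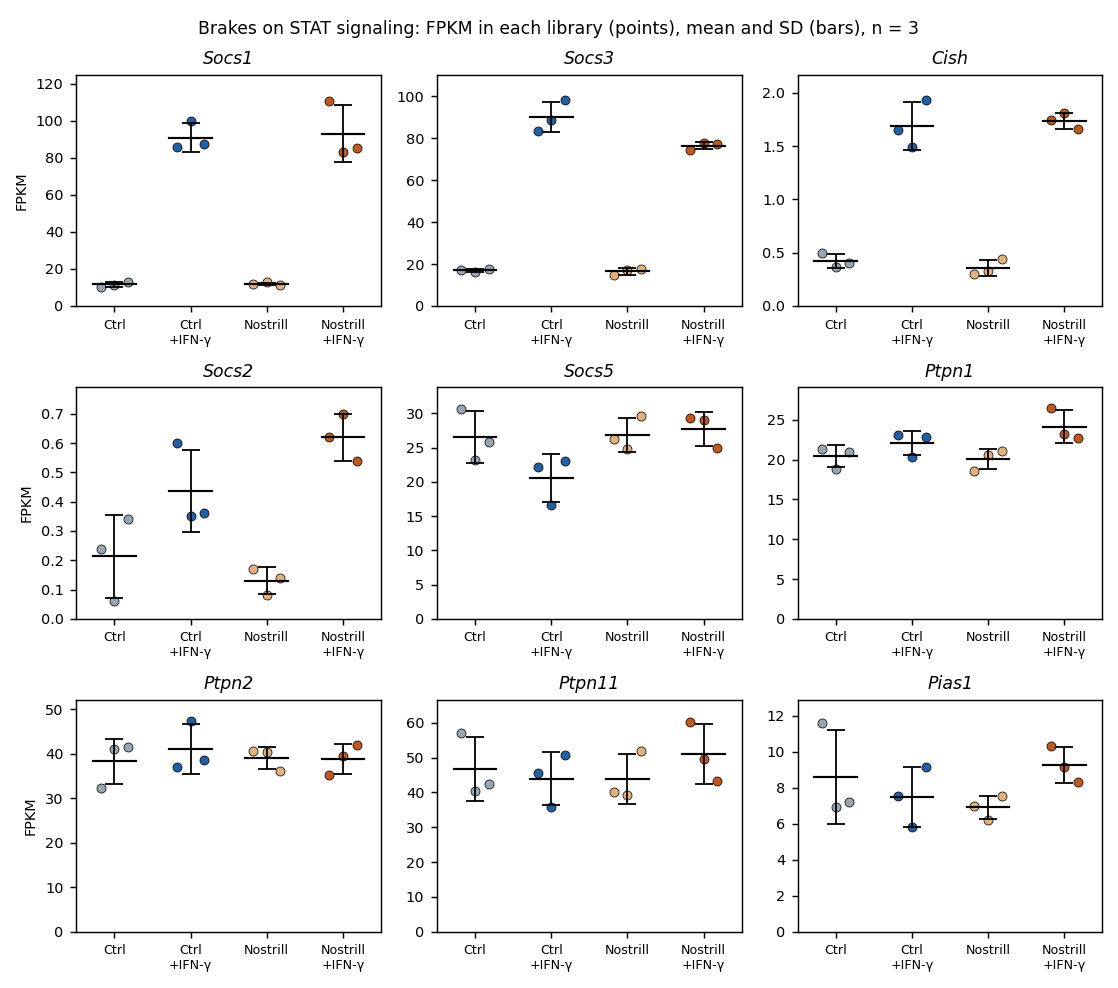
FPKM of the 9 members (1 panel each, y axis from 0) in each library of the 4 groups, with siR_ left off the group names; points are libraries, the long bar the mean and the whiskers the SD (n = 3). Socs1, Socs3 and Cish with IFN-γ lie above all libraries without it, whereas Ptpn2 and Ptpn11 overlap across the 4 groups.

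Socs1 (gene ID 12703, chr16:10783808-10785536), which blocks JAK catalytic activity directly and is the main brake on IFN-γ signaling, had 10.44, 11.40 and 13.14 FPKM in the 3 siR_Ctrl libraries and 85.96, 99.87 and 87.29 FPKM with IFN-γ. In siR_Nostrill cells it had 11.66, 12.70 and 11.59 FPKM without IFN-γ and 110.80, 83.02 and 85.44 FPKM with it. Every library with IFN-γ was above every library without it, and siR_Nostrill + IFN-γ replicate 1 was the highest of all 12. The log2 fold change with IFN-γ was 3.0 (SE 0.16, edgeR adjusted p = 1.22e-07) in siR_Ctrl cells and 2.91 (SE 0.16, adjusted p = 1.78e-07) in siR_Nostrill cells.

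Socs3 (gene ID 12702, chr11:117966079-117970336), which binds gp130 and related receptors as well as JAKs and is the classical brake on STAT3, had 17.09, 16.38 and 17.80 FPKM in siR_Ctrl cells and 83.61, 88.64 and 98.07 FPKM with IFN-γ. The siR_Nostrill libraries had 14.69, 17.15 and 17.64 FPKM without IFN-γ and 74.48, 77.78 and 77.20 FPKM with it. The untreated groups overlapped, while in FPKM the 3 treated siR_Nostrill libraries were all below the 3 treated siR_Ctrl libraries. Its log2 fold change with IFN-γ was 2.47 (SE 0.09, edgeR adjusted p = 6.16e-09) in siR_Ctrl cells and 2.2 (SE 0.09, adjusted p = 1.49e-08) in siR_Nostrill cells.

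Cish (gene ID 12700, chr9:107296659-107302784), a target of STAT5 whose product occupies the receptors that activate STAT5, was present at far lower levels. It had 0.50, 0.37 and 0.40 FPKM in siR_Ctrl cells and 1.65, 1.49 and 1.93 FPKM with IFN-γ, and 0.30, 0.33 and 0.44 FPKM in siR_Nostrill cells against 1.75, 1.81 and 1.66 FPKM with IFN-γ. The groups with and without IFN-γ did not overlap in either case, although the untreated groups rest on 64 and 54 reads in all. The log2 fold change was 2.04 (SE 0.16, edgeR adjusted p = 3.82e-06) in siR_Ctrl cells and 2.27 (SE 0.16, adjusted p = 1.96e-06) in siR_Nostrill cells.

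Socs2 (gene ID 216233, chr10:95383903-95417321), the brake on growth hormone receptor signaling, had so few reads that counting error dominates its values. The siR_Ctrl libraries held 9, 3 and 12 reads and the treated ones 24, 13 and 15, while the siR_Nostrill libraries held 7, 4 and 5 reads and the treated ones 23, 27 and 22. The treated and untreated groups of siR_Nostrill cells lay well apart, whereas in siR_Ctrl cells the highest untreated library came within 1 read of the lowest treated one. The log2 fold change was 1.12 (SE 0.39, edgeR adjusted p = 0.169) in siR_Ctrl and 2.13 (SE 0.40, adjusted p = 0.00656) in siR_Nostrill cells. From the pooled reads, scaled to library size, the ratio was 2.08 (95% interval 1.26 to 3.53) in siR_Ctrl and 4.52 (2.6 to 8.32) in siR_Nostrill cells, intervals that cover counting error only. The larger response in siR_Nostrill cells was not distinguishable from the one in siR_Ctrl cells (interaction log2 1.01, 95% interval -0.26 to 2.29, edgeR adjusted p = 0.430). Leaving out 1 library in turn gave an interaction of 0.60 to 1.38, and the lowest value over all alternatives was 0.27, called in none.

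Socs5 (gene ID 56468, chr17:87107278-87137647), a less studied member linked to epidermal growth factor receptor turnover, did not rise with IFN-γ in either cell group. It had 30.59, 23.12 and 25.83 FPKM in siR_Ctrl cells and 22.23, 16.56 and 23.02 FPKM with IFN-γ, lower than the untreated libraries by a margin of 23.02 against 23.12, while on log2 CPM (library-scaled counts) the treated replicate 3 (6.588) lay above the untreated replicate 2 (6.575). In siR_Nostrill cells it had 26.22, 24.75 and 29.57 FPKM without IFN-γ and 29.32, 28.99 and 24.91 FPKM with it, and these overlapped. The log2 fold change was -0.31 (SE 0.13, edgeR adjusted p = 0.273) in siR_Ctrl cells, which did not pass, and 0.06 (SE 0.13, adjusted p = 0.794) in siR_Nostrill cells. Length-adjusted, the siR_Ctrl value was -0.23 (SE 0.06) and passed (adjusted p = 0.0235), in a setting that called 11.1% of all genes, and the siR_Nostrill value was -0.05 (adjusted p = 0.599), in one that called 19.0%.

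No phosphatase passed the test with IFN-γ. Ptpn1 (gene ID 19246, chr2:167930750-167979385), which encodes PTP1B and acts on JAK2 and TYK2, had 21.39, 18.85 and 21.02 FPKM in siR_Ctrl cells and 23.09, 20.33 and 22.82 FPKM with IFN-γ. It had 18.62, 20.58 and 21.05 FPKM in siR_Nostrill cells and 26.54, 23.22 and 22.68 FPKM with IFN-γ. In FPKM the siR_Ctrl groups overlapped and the siR_Nostrill groups did not, and on log2 CPM, nearer to the counts tested, the groups did not overlap in either case (6.28 to 6.36 against 6.49 to 6.54 in siR_Ctrl cells). The log2 fold changes of 0.18 (SE 0.08, edgeR adjusted p = 0.292) and 0.25 (SE 0.08, adjusted p = 0.0856) did not pass, the latter being called by DESeq2's Wald test (adjusted p = 0.0216), which called 10.5% of the genes it tested in that comparison. Length-adjusted, the values were 0.26 (adjusted p = 0.0712) in siR_Ctrl and 0.15 (adjusted p = 0.246) in siR_Nostrill cells.

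Ptpn2, which encodes the T-cell phosphatase that acts on JAK1, JAK3 and nuclear STATs, ranged from 32.37 to 47.40 FPKM over the 12 libraries. Its log2 fold change with IFN-γ was 0.15 (95% interval -0.13 to 0.42) in siR_Ctrl cells and 0.03 (-0.24 to 0.30) in siR_Nostrill cells, and length-adjusted 0.07 (-0.06 to 0.20) and 0.16 (0.03 to 0.30, edgeR adjusted p = 0.0813), not called in either. Ptpn11, which encodes SHP2, a phosphatase that damps JAK-STAT signaling and also relays growth factor signals, ranged from 35.68 to 60.33 FPKM. The intervals of its log2 fold changes, -0.35 to 0.31 in siR_Ctrl and -0.13 to 0.53 in siR_Nostrill cells, include 0, as do the length-adjusted ones (-0.05 to 0.23 and -0.13 to 0.16). Pias1, a SUMO ligase that keeps STATs from DNA, had 5.79 to 11.61 FPKM, and its log2 fold change was -0.09 (95% interval -0.43 to 0.24) in siR_Ctrl and 0.31 (-0.02 to 0.65, edgeR adjusted p = 0.252) in siR_Nostrill cells. The Pias1 value in siR_Nostrill cells was called only in the edgeR fit of the compared groups alone (adjusted p = 0.0464). That fit called 1997 genes in all, against 807 in the fit as reported. Length-adjusted, the Pias1 value was 0.19 (0.02 to 0.37, edgeR adjusted p = 0.119), with an interval of -0.17 to 0.18 in siR_Ctrl cells.

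The long transcripts of Ptpn11, Pias1 and Socs5 (effective lengths 5369, 4301 and 4120 nt) moved together between replicates of 1 group, and the short Ptpn2 (1467 nt) moved against them. In siR_Ctrl replicate 1, the library with the strongest length trend, Ptpn11, Pias1 and Socs5 had 57.14, 11.61 and 30.59 FPKM, each the highest of its group, and Ptpn2 had 32.37 FPKM, the lowest. In siR_Ctrl + IFN-γ replicate 2, with the opposite trend, they had 35.68, 5.79 and 16.56 FPKM, each the lowest of its group, and Ptpn2 had 47.40 FPKM, the highest. The shortest member, Socs1 (999 nt), moved with Ptpn2 in both libraries (10.44 and 99.87 FPKM) but not in siR_Nostrill + IFN-γ replicate 1 (Spearman correlation 0.504). There Socs1 was the highest of its group (110.80 FPKM) and Ptpn2 the lowest (35.22 FPKM). With the length trend removed, the SE of the IFN-γ effect in siR_Ctrl cells went from 0.15 to 0.07 on the log2 scale for Ptpn11 and from 0.13 to 0.06 for both Socs5 and Ptpn2, while for Ptpn1 (3997 nt) it went from 0.076 to 0.085.

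IFN-γ reordered the members. By mean FPKM, a scale that allows levels of different genes to be compared, siR_Ctrl cells had Ptpn11 (46.7) and Ptpn2 (38.3) at the top, whose ranges overlapped, then Socs5 (26.5), Ptpn1 (20.4), Socs3 (17.1), Socs1 (11.7) and Pias1 (8.59), the last 2 overlapping, and Cish (0.42) and Socs2 (0.21) at the bottom. With IFN-γ, Socs1 (91.0 ± 7.68, SD, n = 3) and Socs3 (90.1 ± 7.34) stood above Ptpn11 (44.0 ± 7.62) and did not separate from each other, and Ptpn1 (22.1) overlapped with Socs5 (20.6). The order of the untreated groups was the same in siR_Nostrill cells, where Socs1 and Pias1 no longer overlapped. In siR_Nostrill + IFN-γ cells Socs1 (93.1 ± 15.4) lay above Socs3 (76.5 ± 1.76) with no overlap. Among the 15002 genes, Socs1 stood above 59.9% in siR_Ctrl cells and above 92.2% with IFN-γ, and Socs3 above 67.8% and 92.1%, whereas Cish stood above only 25.3% and 33.9% and Ptpn11 above 85.5% and 84.6%. The summed FPKM of the 5 members Socs1, Socs2, Socs3, Socs5 and Cish went from 55.9 ± 4.01 to 204 ± 8.72 (SD, n = 3) in siR_Ctrl cells and from 55.8 ± 3.24 to 200 ± 15.0 in siR_Nostrill cells. Socs1 and Socs3 made up 51.6% of that sum without and 88.8% with IFN-γ in siR_Ctrl cells, and 51.1% and 84.9% in siR_Nostrill cells.

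**Figure D2:**
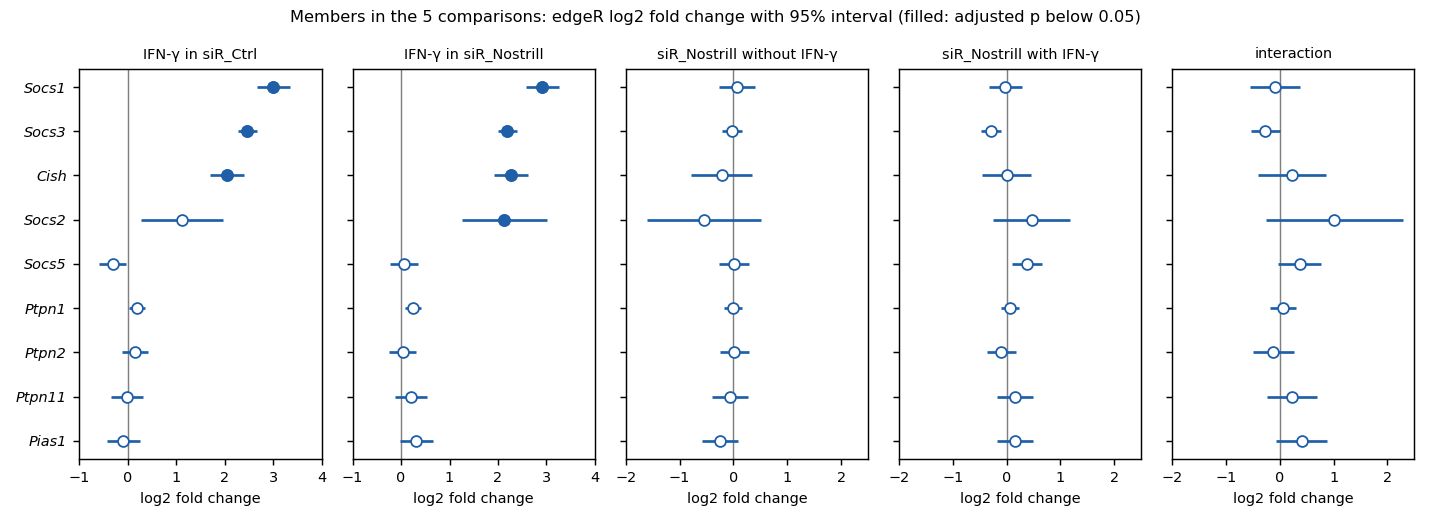
edgeR log2 fold change of each member with its 95% interval (x axis) in the 5 comparisons (panels, with different x ranges); filled points have an adjusted p below 0.05. Filled points appear only for Socs1, Socs3 and Cish with IFN-γ in both cell groups and for Socs2 in siR_Nostrill cells.

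The knockdown comparisons ask whether siR_Nostrill changes the brakes at rest, under IFN-γ, or in their response. Without IFN-γ, 0 of 9 members were called, and the median log2 fold change of the members was -0.02, beside 0.01 over all genes, of which 0.218% were called. The intervals of Socs1 (-0.27 to 0.40) and Socs3 (-0.22 to 0.17) bound any resting difference to less than 0.5 on the log2 scale, while those of Cish (-0.78 to 0.34) and Socs2 (-1.60 to 0.51) are wider. No member had an unadjusted edgeR p under 0.05, against 13.8% of all genes. Length-adjusted, 0 of 9 members were called again, where 3.38% of all genes were, with Socs5 (0.15, unadjusted p = 0.0257) and Ptpn11 (0.17, unadjusted p = 0.0271) under an unadjusted edgeR p of 0.05. The share of all genes under that unadjusted p is not given for this fit, so nothing is read from these 2 values.

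With IFN-γ, edgeR called 0 of 9 members between siR_Nostrill and siR_Ctrl cells and 0.429% of all genes. Socs3 and Socs5 had an unadjusted p under 0.05, as had 14.5% of all genes. Socs3 was lower in siR_Nostrill cells, 76.5 ± 1.76 against 90.1 ± 7.34 FPKM (SD, n = 3), in 3 of 3 libraries, with a log2 fold change of -0.30 (95% interval -0.48 to -0.11, unadjusted p = 0.00492, edgeR adjusted p = 0.129). Socs5 was higher, 27.7 ± 2.46 against 20.6 ± 3.52 FPKM, in 3 of 3 libraries, with a log2 fold change of 0.38 (0.10 to 0.66, unadjusted p = 0.0132, edgeR adjusted p = 0.193). Neither passed. DESeq2 called Socs3 (adjusted p = 0.0167) with 5.46% of the genes it tested. Length-adjusted edgeR called Socs3 (-0.30, SE 0.07, adjusted p = 0.0139) and Socs5 (0.33, SE 0.06, adjusted p = 0.00485). These 2 of 9 members stand beside 12.9% of all genes called in that setting.

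Socs1, the most responsive member, could not be told apart between the treated groups (log2 -0.03, 95% interval -0.34 to 0.28), and the interval of Cish ran from -0.45 to 0.46. The values for Ptpn1 (0.06), Ptpn2 (-0.10), Ptpn11 (0.16) and Pias1 (0.15) on the log2 scale had intervals that include 0.

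**Figure D3:**
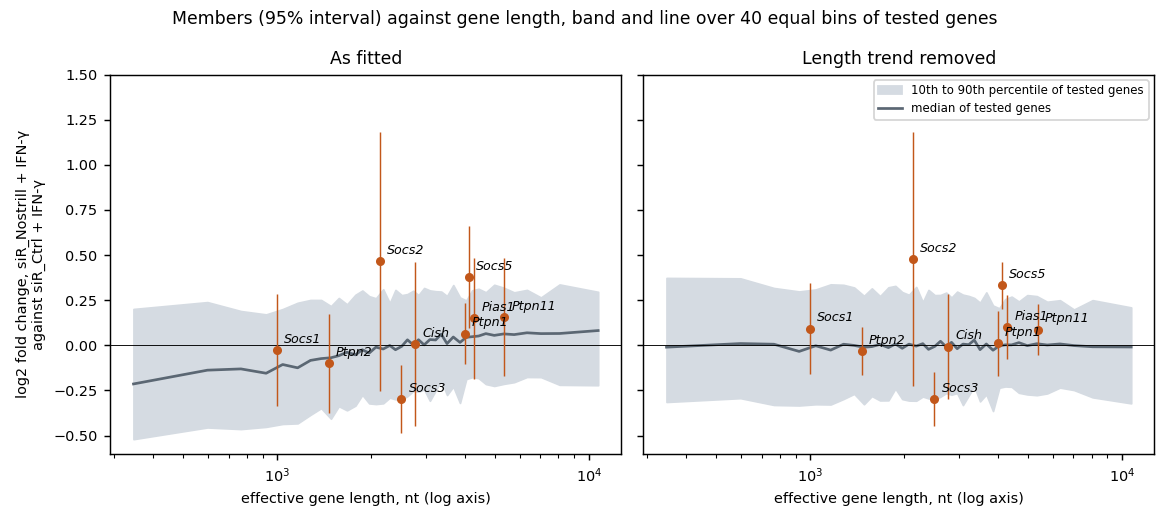
log2 fold change of siR_Nostrill against siR_Ctrl cells, both with IFN-γ (y axis), against effective gene length (log x axis), as fitted (left) and length-adjusted (right); orange points are the members with 95% intervals, the line and band the median and the 10th to 90th percentile of tested genes in 40 length bins. The grey median climbs with length at left and is flat at right, where the intervals of Socs3 (-0.30) and Socs5 (0.33) stay clear of 0.

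The difference between the IFN-γ responses of siR_Nostrill and siR_Ctrl cells was tested as an interaction, for which the 2 responses above share no libraries. It was called for 0 of 9 members and for 0% of the 11900 genes by edgeR, with 1277 genes at an unadjusted p under 0.05, and again for 0% length-adjusted. Socs3 had a smaller response in siR_Nostrill cells by 0.27 on the log2 scale (-0.27, 95% interval -0.54 to -0.0048, unadjusted p = 0.0466, edgeR adjusted p = 0.430). The interaction was 0.37 (-0.03 to 0.77) for Socs5 and 0.41 (-0.07 to 0.88) for Pias1, and -0.09 (-0.55 to 0.37) for Socs1. Length-adjusted, it was 0.18 for Socs5 and 0.19 for Pias1, and leaving out 1 library in turn gave 0.24 to 0.45 for Socs5 and 0.19 (without siR_Ctrl replicate 1) to 0.51 for Pias1, called in none of these fits. A difference in response was thus not established for any member at this number of libraries.

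The other genes of the pathway were described from lists. Of 11 tested genes for the IFN-γ receptor, JAKs and STATs, 3 rose with IFN-γ in siR_Ctrl cells and 4 in siR_Nostrill cells (beside 5.45% and 6.78% of all genes called), and none fell. Length-adjusted, 5 rose in each (beside 11.1% and 19.0% of all genes called), Jak2, Jak3, Stat2 and Stat3 in both, with Stat5a in siR_Ctrl cells (adjusted p = 0.0165) and Ifngr2 in siR_Nostrill cells (adjusted p = 0.0252), and none fell. Stat2, a STAT of type I interferon signaling, had log2 fold changes of 3.18 (SE 0.11, edgeR adjusted p = 3.11e-09) and 2.91 (SE 0.10, adjusted p = 6.19e-09), and Stat3, which Socs3 restrains, had 1.90 and 2.01. Jak3 rose by 0.73 and 0.79, and Jak2, an IFN-γ receptor kinase, by 0.64 in siR_Nostrill cells (edgeR adjusted p = 0.0104), its value in siR_Ctrl cells being 0.38 (adjusted p = 0.150). Length-adjusted, Jak2 was called in both, at 0.48 (adjusted p = 0.000114) in siR_Ctrl and 0.52 (adjusted p = 4.86e-05) in siR_Nostrill cells. Between the treated siR_Nostrill and siR_Ctrl cells 1 of the 11 was called (beside 0.429% of all genes), Ifngr2, the signaling chain of the IFN-γ receptor, at 0.54 (SE 0.09, edgeR adjusted p = 0.0375). The Ifngr2 call was lost in 11 of 20 alternatives, the replicate block among them (adjusted p = 0.0503). The adjusted p went up to 0.175, without siR_Nostrill + IFN-γ replicate 2, although the value kept between 0.51 and 0.59. Length-adjusted, Ifngr2 was called at 0.57 (adjusted p = 0.00137), where 12.9% of all genes were called. Without IFN-γ its value was 0.39 (edgeR adjusted p = 0.150) and length-adjusted 0.29 (adjusted p = 0.0695), called in neither. The Jak3 call in siR_Ctrl cells was lost in 4 of 20 alternatives, namely in the compared groups alone (0.73, adjusted p = 0.0917), in limma on log2(FPKM + 1) (0.46, adjusted p = 0.0673), without siR_Ctrl replicate 2 (0.64, adjusted p = 0.0602) and without siR_Ctrl + IFN-γ replicate 3 (0.60, adjusted p = 0.0521). The Jak2 call in siR_Nostrill cells was lost without replicate 2 of siR_Nostrill (0.59, adjusted p = 0.0663) or of siR_Nostrill + IFN-γ (0.58, adjusted p = 0.0564). The medians of the list with IFN-γ were 0.08 and 0.28, beside 0.18 and 0.31 for the 9 brakes.

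A list of other brakes holds further SOCS and PIAS genes, Ptpn6, Sh2b3 and Cbl. Of its 11 tested genes, Usp18 rose in both cell groups (beside 5.45% and 6.78% of all genes called). Its log2 fold changes were 3.81 (SE 0.20) and 3.07 (SE 0.18). Usp18 blocks signaling at the type I interferon receptor. Pdlim2, a ligase for STATs, fell by 0.64 in siR_Nostrill cells (-0.64, SE 0.16, edgeR adjusted p = 0.0337), a call lost in 7 of 20 alternatives, each leaving out 1 library (adjusted p up to 0.136, without siR_Nostrill + IFN-γ replicate 2). Its value kept between -0.70 and -0.60 over the 12 fits without 1 library. The rest were not called with IFN-γ. Length-adjusted, Pdlim2 fell in both cell groups (-0.32, adjusted p = 0.00608, in siR_Ctrl and -0.49, adjusted p = 0.000163, in siR_Nostrill cells), and Ptpn6, the phosphatase SHP1, rose in siR_Ctrl cells (0.30, adjusted p = 0.0384). Between siR_Nostrill and siR_Ctrl cells with IFN-γ, 0 of the 11 were called without length adjustment, beside 0.429% of all genes, so nothing is read from that count. The edgeR adjusted p was 0.0569 for Ptpn6, 0.371 for Socs6 and 0.193 for Pias2. Length-adjusted, Ptpn6 (-0.56, adjusted p = 0.00195) and Socs6 (-0.34, adjusted p = 0.0268) were lower and Pias2 (0.31, adjusted p = 0.0165) was higher in that comparison. These are 3 of 11 genes where 12.9% of all genes were called, and the length-adjusted IFN-γ calls of Pdlim2 and Ptpn6 stand beside 11.1% in siR_Ctrl and 19.0% in siR_Nostrill cells. The remaining SOCS genes Socs4, Socs6 and Socs7 had log2 fold changes with IFN-γ of -0.73, 0.04 and -0.19 in siR_Ctrl cells and 0.61, 0.33 and 0.37 in siR_Nostrill cells, and none of them was called in either. Socs4 had 7.33, 2.75 and 2.85 FPKM in the siR_Ctrl libraries, so that 1 library stood above the others. The 4 partners through which the SOCS box recruits ubiquitin ligase activity (Elob, Eloc, Cul5 and Rnf7) were called with IFN-γ in 0 of 4 cases in either cell group, a count that 4 genes can give at shares of 5.45% and 6.78% and from which nothing is read. Between siR_Nostrill and siR_Ctrl cells Rnf7 was not called by the edgeR fit without length adjustment, at -0.17 (adjusted p = 0.579) without and -0.68 (adjusted p = 0.109) with IFN-γ. Length-adjusted, it was lower in both (-0.40, adjusted p = 0.00811, and -0.55, adjusted p = 0.000873), where 3.38% and 12.9% of all genes were called.

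**Figure D4:**
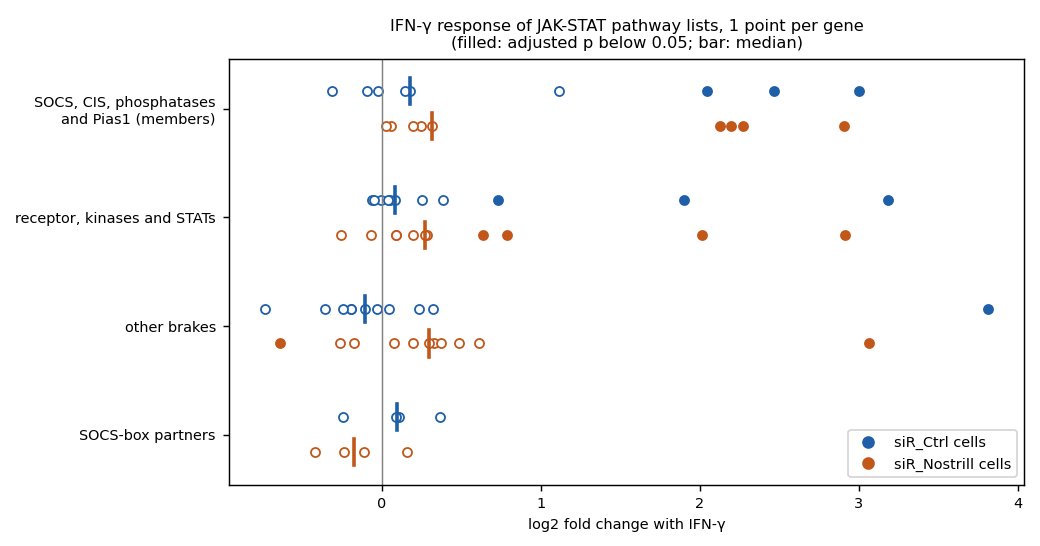
edgeR log2 fold change with IFN-γ (x axis) of each tested gene in 4 lists (rows) for siR_Ctrl (blue) and siR_Nostrill (orange) cells; filled points have an adjusted p below 0.05 and short bars are list medians. Most genes of each list sit near 0, and the filled points above 1.5 are Socs1, Socs2, Socs3, Cish, Stat2, Stat3 and Usp18.

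The genes whose log2 library-scaled counts (CPM) followed each responsive member most closely over the 12 libraries were listed by Pearson's r, a description in which the points share the 4 groups. For Socs1 they were Ly6i (r = 0.998), Gm4841 (0.996) and Irf1 (0.996), and for Socs3 Parp10 (0.996), Tvp23a (0.996) and Mlkl (0.996). Cish was followed by Nos2, the inducible nitric oxide synthase (0.996), Samhd1 (0.995) and Il18rap (0.993). For the sparsely read Socs2 the closest were Steap4 (0.948), Trim5 (0.941) and Smap2 (0.939).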

How the data were processed

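RNA-seq of 12 libraries was analysed, 3 in each of 4 groups taken from the labels. The authors deposited, per library, estimated counts per gene, FPKM and TPM. By the methods and the submitters' processing notes, oligo(dT)-enriched RNA was sequenced on a DNBSEQ platform, and HISAT2 and Bowtie2 placed the reads on GRCm38.p6. No source used here gives the counting tool. Estimated counts were rounded to whole numbers. Genes were filtered with filterByExpr (minimum count 10), normalised by TMM and tested with edgeR 4.0.16 (quasi-likelihood, all 12 libraries in 1 fit, R 4.3.3), with Benjamini-Hochberg adjustment over 11900 genes and a threshold of 0.05. FPKM were used as levels, and TPM only to check the files and, for Socs3 and Socs5, the overlap of the treated groups. SEs were derived from each test's own p. Alternatives were DESeq2 1.42.0, its size factors, no filter, the compared groups alone, a replicate block, limma 3.58.1 on log2(FPKM + 1), leaving out each library, and a lowess trend (span 0.3) of each library on gene length as offset. The scripts were tested on simulated data.

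The members and lists were chosen with earlier results of these data known. All 9 members are named. From each list at most 4 genes called by the edgeR fit as reported, those with the largest change, are named in a comparison. The genes named for length-adjusted calls, up to 5 in a comparison, were chosen after their values were seen. So were those named for contrast (Socs4, Socs6, Socs7, Jak2 in siR_Ctrl cells, Ifngr2 without IFN-γ). For each member called, 3 genes of closest pattern (log2 CPM, prior count 2) are named. Nostrill and Stat4 were not analysed here, and 1 further gene of the pathway is not reported here.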

Additional observations from a re-analysis of the deposited data

How the results depend on the processing

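All 7 member calls with IFN-γ (Socs1, Socs3 and Cish in both cell groups, Socs2 in siR_Nostrill cells) kept their direction and their call in every one of their 140 alternative values. Without Socs2, which passed the count filter only through its treated groups, this is 6 calls and 120 values. The adjusted p of Socs2 reached 0.0437 without siR_Nostrill replicate 2. The 12 fits that each leave out 1 library called 3, 4, 0, 0 and 0 members for IFN-γ in siR_Ctrl and in siR_Nostrill cells, siR_Nostrill without and with IFN-γ, and the interaction, an order kept below, while 489 to 589, 491 to 1138, 0 to 37, 0 to 72 and 0 genes were called in the same fits. limma on log2(FPKM + 1), whose pseudocount understates changes of low genes, gave smaller log2 values for Cish (0.92 and 1.02) and for Socs2 in siR_Nostrill cells (0.52). Under siR_Nostrill with IFN-γ the count of members called was 1 by DESeq2 (5.46% of all genes called), 2 length-adjusted (12.9%), and 2 length-adjusted with a replicate block (15.9%), a setting chosen after seeing the data. There the adjusted p ranged from 0.00382 to 0.399 over 20 alternatives for Socs3 and from 0.0029 to 0.522 for Socs5.

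Counts over all genes depended on the setting more than the member calls did. DESeq2 called 1330, 265 and 596 genes for IFN-γ in siR_Nostrill cells and siR_Nostrill without and with IFN-γ, against 807, 26 and 51. The compared groups alone gave 341, 1997, 0 and 0 in the 4 comparisons of groups, and the length-adjusted fit 1320, 2260, 402 and 1541. Without a filter the count under siR_Nostrill with IFN-γ was 30, and limma gave 111.

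The replicate numbers do not pair the libraries by the labels, and deviations of same-numbered libraries correlated at -0.73 to 0.91, over 0.1 in 8 of 18 pairs, with 5 of 12 libraries closest to one of their own number. The replicate block changed no member's call and ended that of Ifngr2 (adjusted p = 0.0503), called 644, 943, 18, 32 and 0 genes, and with the length trend removed gave 1440, 2660, 559, 1891 and 248, with 0 members in the interaction.

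Signs turned in uncalled, mostly near-zero log2 values. Length-adjusted (in parentheses with the replicate block), they were for IFN-γ in siR_Ctrl cells Ptpn11 0.091 (0.091) and Pias1 0.0028 (0.0088); for IFN-γ in siR_Nostrill cells Socs5 -0.049 (-0.049); for siR_Nostrill without IFN-γ Socs1 -0.18 (-0.18), Ptpn1 0.12 (0.12), Ptpn2 -0.13 (-0.13) and Ptpn11 0.17 (0.17); for siR_Nostrill with IFN-γ Socs1 0.092 (0.083) and Cish -0.0071 (-0.0043); for the interaction Socs1 0.27 (0.26), Ptpn1 -0.11 (-0.11), Ptpn2 0.094 (0.094) and Ptpn11 -0.078 (-0.080). limma gave -0.0076 for Ptpn2 with IFN-γ in siR_Nostrill cells and 0.023 for Socs1 under siR_Nostrill with IFN-γ. Ptpn1 under siR_Nostrill without IFN-γ, -0.00014 as reported, was 0.00063 (DESeq2 Wald test), 0.0012 (DESeq2 size factors in edgeR), 0.0067 (no filter on low counts), 0.0025 (only the groups compared) and 0.00069 (replicate block). The ranges over fits without 1 library that crossed 0 were for IFN-γ in siR_Ctrl cells Ptpn11 -0.10 to 0.12 and Pias1 -0.20 to 0.12; for IFN-γ in siR_Nostrill cells Ptpn2 -0.015 to 0.084; for siR_Nostrill without IFN-γ Socs1 -0.040 to 0.15, Socs3 -0.063 to 0.043, Socs5 -0.070 to 0.13, Ptpn1 -0.028 to 0.045, Ptpn2 -0.084 to 0.090 and Ptpn11 -0.17 to 0.075; for siR_Nostrill with IFN-γ Socs1 -0.15 to 0.10, Cish -0.033 to 0.076 and Ptpn2 -0.17 to 0.028; for the interaction Socs1 -0.22 to 0.035 and Ptpn2 -0.19 to 0.0025. The cause was not tested. Socs2 rests on 24 and 16 reads and Cish on 64 and 54 in all untreated libraries of siR_Ctrl and siR_Nostrill.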
